A study of Mus musculus with 9 samples.

Results

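The genes described here are 10 members of the signalling machinery by which macrophages sense danger and metabolite signals: the formyl peptide receptors Fpr1 and Fpr2, the anaphylatoxin receptors C3ar1 and C5ar1, the lipid receptors Ptafr and Gpr84, the nucleotide and adenosine receptors P2ry6, P2ry14 and Adora2b, and Rgs1, which shortens the signal of such receptors. They were picked by symbol from a count table of 23413 genes. The choice was partly selected on measured values of the same libraries, since Gpr84, Ptafr and Fpr2 had been seen to change between the groups. The levels and fold changes of all 10 genes between the groups are therefore a description, with no test. All 10 were among the 11393 genes with enough counts to enter the fit, although Gpr84 and P2ry14, near 0 in one group, entered it only through the other groups.

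Bulk RNA-seq was done on F4/80+CD11b+ cells sorted from livers of male C57BL/6 mice, described as Gr1low and mostly Kupffer cells (KCs), the resident macrophages of the liver, with monocyte-derived macrophages as the rest. The ND group (2 libraries) had a normal chow, and the Veh group (3 libraries) and the DPI group (4 libraries) a high-fat diet (HFD), for 8 weeks from 5 weeks of age. From week 3 the DPI mice received diphenyleneiodonium (DPI), tested in the study as an agonist of the receptor GPR3, at 2 mg/kg every 5 days, and the Veh mice a polyethylene glycol vehicle only. The sample records also mention cells treated with 500 nM DPI for 24 h, so how the DPI libraries were dosed rests on the design text of the series.

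All of these receptors belong to the class A G protein-coupled receptors, which cross the membrane with 7 helices and hand their signal to a heterotrimeric G protein inside the cell. Formyl peptides come from bacteria and from damaged mitochondria, the anaphylatoxins C3a and C5a from complement cleavage, platelet-activating factor (the ligand of PTAFR) from membrane phospholipid, and UDP, UDP-glucose and adenosine from stressed or dying cells. In phagocytes most of the receptors signal through Gi, guiding migration, degranulation and the oxidative burst, while RGS1 speeds up the return of the G protein to its resting state.

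The promoters of Gpr84, Ptafr and Fpr2 are shown because these are the genes whose values entered the choice. The windows are those of RefSeq on GRCm38.p6, from 250 bases before to 50 bases after the annotated start, written 5′ to 3′ on the strand of the gene, and 8 of the 10 genes had a window in that table. The Gpr84 window lies at chr15:103310389-103310688 (minus strand), and the capitals mark its 2 matches to the kappaB letters GGGNNTTTC.
Gpr84: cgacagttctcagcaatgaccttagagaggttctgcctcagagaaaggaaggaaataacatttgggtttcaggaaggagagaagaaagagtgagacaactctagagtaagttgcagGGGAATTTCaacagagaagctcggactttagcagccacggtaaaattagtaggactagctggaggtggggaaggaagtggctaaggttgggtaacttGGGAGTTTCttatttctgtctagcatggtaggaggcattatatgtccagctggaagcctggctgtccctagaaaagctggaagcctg
The Ptafr window lies at chr4:132563817-132564116 (plus strand) and held no match to any of the 5 motifs searched.
Ptafr: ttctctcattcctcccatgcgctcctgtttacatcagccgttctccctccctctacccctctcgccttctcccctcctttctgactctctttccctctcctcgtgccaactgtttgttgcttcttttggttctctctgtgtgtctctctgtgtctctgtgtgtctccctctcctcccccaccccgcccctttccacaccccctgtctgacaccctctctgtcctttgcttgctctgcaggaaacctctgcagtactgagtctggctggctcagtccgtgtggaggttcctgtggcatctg
The Fpr2 window lies at chr17:17887574-17887873 (plus strand), and the capitals mark a match to the STAT letters TTCNNNGAA.
Fpr2: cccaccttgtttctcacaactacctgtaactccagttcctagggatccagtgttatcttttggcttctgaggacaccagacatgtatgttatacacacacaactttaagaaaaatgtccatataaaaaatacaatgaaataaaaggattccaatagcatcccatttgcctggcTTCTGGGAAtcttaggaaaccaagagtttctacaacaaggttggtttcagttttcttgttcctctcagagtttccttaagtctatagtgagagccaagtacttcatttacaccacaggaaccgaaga
The search covered both strands. The kappaB letters stood in 4.36% of all 32851 windows of this length, the STAT letters in 8.30%, AP-1 (TGANTCA) in 7.81%, PU.1 (GAGGAAGT) in 3.20% and CRE (TGACGTCA) in 1.79%. Of the other members, C3ar1 held a kappaB and an AP-1 match, which do not overlap, and P2ry14 held an AP-1 match in 2 of its 4 windows. A match describes letters in a window and no bound factor.

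Library totals ran from 3534325 to 15585775 counts, with 27.0% to 44.5% of them on the ribosomal RNA precursor Rn45s. Levels below are CPM (counts scaled to a common library total) on library sizes scaled by edgeR's TMM method. A count of 3, taken as the smallest told apart from none, stood for 0.184 to 1.02 CPM, which covers counting error only. The gene of the sorting marker F4/80, Emr1, had 219 to 2315 counts per library and was itself lower in Veh than in ND (-1.05 on the log2 scale, SE 0.38, edgeR unadjusted p = 0.0152 and adjusted p = 0.293), past the threshold given below but not without ND library 1 or Veh library 3. The defining KC genes Clec4f, Timd4, Vsig4 and Marco were scarce. Clec4f had 0 and 244 counts in ND, 42, 0 and 0 in Veh and 219, 6, 4 and 6 in DPI, and Marco had 1 count in a single library. The summed level of the 11 KC markers was 7.65 to 135 CPM in ND, 32.2 to 54.6 in Veh and 17.6 to 81.3 in DPI, against 4364 to 9643 CPM over all libraries for 9 monocyte markers. Other genes of the list were detected more widely, such as Slc40a1 with 11 to 169 counts in every library. The rank correlation between replicate libraries was 0.74 in ND, 0.87 to 0.88 in Veh and 0.84 to 0.89 in DPI.

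Ptafr, Rgs1 and Gpr84 were several times higher in Veh than in ND, and Ptafr, Gpr84 and Fpr2 were lower in each DPI library than in each Veh library. Fpr1, C3ar1 and P2ry6 overlapped between the groups in both comparisons. A gene was said to pass the threshold of the study's methods at an unadjusted p under 0.05 with a fold change of at least 2. For Veh against ND, 7.03% of all tested genes were past it upward and 4.63% downward, and Ptafr, Gpr84 and Rgs1 stood among the former. For DPI against Veh, 1.50% were past it upward and 1.34% downward, and Ptafr stood among the latter. Groups that do not overlap were found upward for 15.0% and downward for 12.5% of the tested genes in the first comparison, where 5 members did so upward, and for 3.38% and 2.48% in the second, where 3 members did so downward. The values of these contrasts took part in choosing the genes, and both comparisons share the Veh libraries, so nothing is read from these counts. In bulk libraries, fewer cells of a type and less RNA per cell cannot be told apart.

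**Figure D1:**
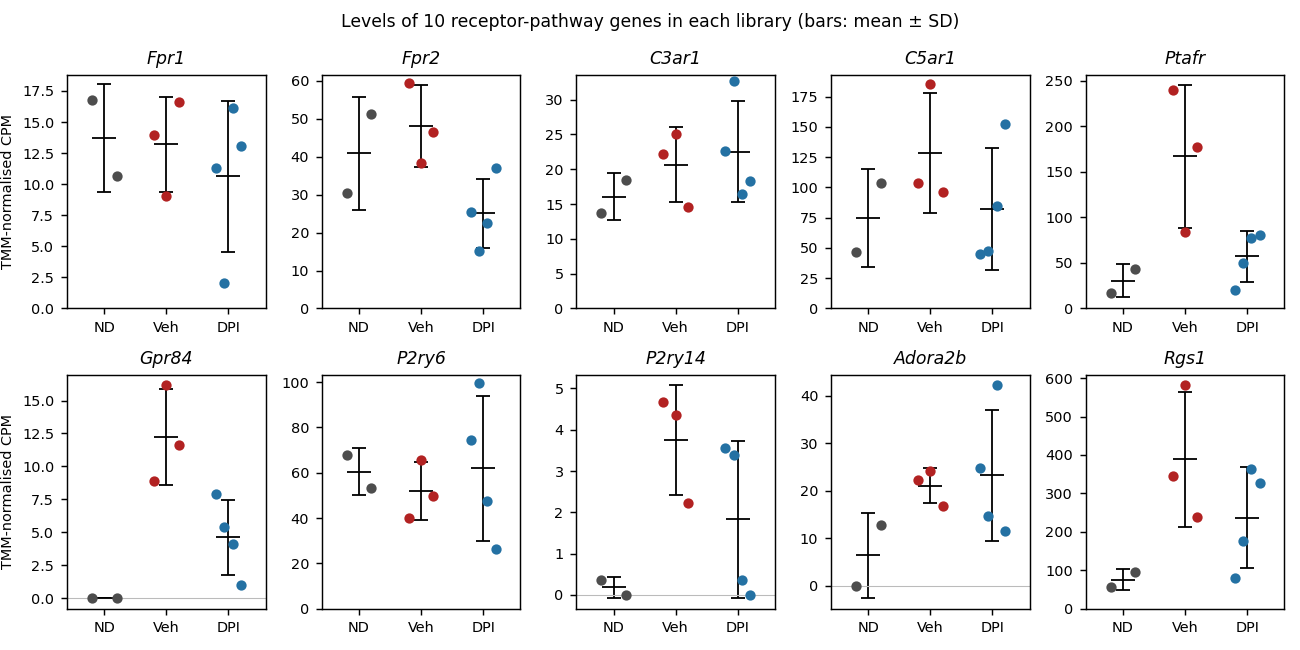
TMM-normalised CPM (vertical axes, linear) of each member in the 2 ND, 3 Veh and 4 DPI libraries, where each point is a library and the bars give mean ± SD. The Veh points of Ptafr, Gpr84 and Rgs1 lie above both ND points, and for Ptafr, Gpr84 and Fpr2 the 4 DPI points lie below the 3 Veh points.

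Ptafr encodes the receptor of platelet-activating factor, a phospholipid that activates phagocytes and platelets (chromosome 4 from 132564067 to 132582683 on GRCm38, plus strand). It had 17.5 and 43.5 CPM in the ND libraries, 239, 83.8 and 177 CPM in the Veh libraries and 20.5, 49.6, 77.4 and 81.0 CPM in the DPI libraries. Neither comparison with Veh had overlapping groups, yet the highest DPI library was only slightly under the lowest Veh library. Group means were 30.5 ± 18.4 CPM in ND (SD, n = 2), 167 ± 78.3 CPM in Veh (SD, n = 3) and 57.1 ± 28.1 CPM with DPI (SD, n = 4). The log2 fold change was 2.45 (SE, standard error, 0.64) for Veh against ND, -1.55 (SE 0.48) for DPI against Veh and 0.90 (SE 0.57) for DPI against ND, whose libraries overlapped. With single libraries left out, the first of these ran from 1.94 without ND library 1 to 3.28 without ND library 2, and the second from -1.87 without Veh library 2 to -1.19 without Veh library 1.

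Gpr84 encodes a receptor for medium-chain fatty acids that is induced in activated macrophages (chromosome 15 from 103308235 to 103310612, minus strand). It had 0 counts in both ND libraries, which allows up to 0.546 and 0.560 CPM. In Veh it had 40, 89 and 47 counts, or 8.88, 16.1 and 11.6 CPM, and in DPI 129, 16, 22 and 10 counts, or 7.91, 5.43, 4.08 and 1.02 CPM. Each library on HFD was therefore above both ND libraries, and each DPI library was below each Veh library, the closest pair being DPI library 1 and Veh library 1. Against the floor of 3 counts per library, Veh was at least 22.1-fold higher than ND and DPI at least 8.33-fold higher than ND. The log2 fold change for DPI against Veh was -1.40 (SE 0.77), from -1.82 without DPI library 1 to -1.06 without DPI library 4. An antisense transcript, Gm49482, overlaps the gene, and the sources used here do not say whether strand was used in counting.

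Fpr2 and Fpr1 encode the formyl peptide receptors, the former of which also binds annexin A1 and serum amyloid A. They are neighbours on chromosome 17 (Fpr1 from 17876471 to 17883940 on the minus strand, Fpr2 from 17887824 to 17893952 on the plus strand), with start sites 3884 bases apart and pointing away from each other. Fpr2 had 30.4 and 51.4 CPM in ND, 59.5, 38.3 and 46.6 CPM in Veh and 25.5, 15.3, 22.5 and 37.1 CPM in DPI. The ND libraries spanned the Veh range in part, and the DPI libraries were all lower than the Veh libraries, with Veh library 2 and DPI library 4 close to each other. The log2 fold change was 0.23 (SE 0.45) for Veh against ND and -0.93 (SE 0.37) for DPI against Veh. The first changed sign without ND library 1. It also did so with scaling by library size alone, which moved the median of all genes from 0.03 to -0.26. The second ran from -1.18 without DPI library 4 to -0.76 without Veh library 1.

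Fpr1 was lower than Fpr2 in every library on the scale of CPM per kb of transcript and showed no such pattern. It had 16.8 and 10.6 CPM in ND, 13.98, 9.07 and 16.6 CPM in Veh and 11.3, 2.04, 16.1 and 13.1 CPM in DPI. The low value, in DPI library 2, was 6 counts in the shallowest library. Its log2 fold change was -0.05 (SE 0.74) for Veh against ND and -0.30 (SE 0.61) for DPI against Veh, and the latter was 0.03 without DPI library 2. The former was positive without ND library 1 and without Veh library 2. The formyl peptide receptors are close copies of each other, and Fpr2 shares annotated sequence with Fpr3, so counts of this family may be split between its members.

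C5ar1, the receptor of the anaphylatoxin C5a and a strong attractant receptor of neutrophils and monocytes, varied widely within groups (chromosome 7 from 16246743 to 16259540). It had 46.3 and 103 CPM in ND, 103, 186 and 96.4 CPM in Veh and 44.6, 47.6, 84.4 and 153 CPM in DPI. The groups overlapped in both comparisons, with log2 fold changes of 0.78 (SE 0.55) for Veh against ND and -0.64 (SE 0.44) for DPI against Veh. The first was 0.33 without ND library 1 and 1.51 without ND library 2, and the second -0.28 without Veh library 2 and -1.13 without DPI library 4.

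C3ar1, the receptor of C3a, was lower than C5ar1 per kb of transcript in each group mean (chromosome 6 from 122847138 to 122856161). It had 13.7 and 18.5 CPM in ND, 22.2, 25.0 and 14.6 CPM in Veh and 22.7, 32.6, 16.5 and 18.4 CPM in DPI. Its log2 fold change was 0.36 (SE 0.50) for Veh against ND and 0.12 (SE 0.42) for DPI against Veh, and the second turned negative without Veh library 3 or DPI library 2.

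Among the nucleotide receptors, P2ry6, which senses UDP, had similar means in the 3 groups (chromosome 7 from 100937630 to 100974649). It had 67.8 and 53.2 CPM in ND, 40.2, 65.8 and 49.8 CPM in Veh and 74.5, 99.5, 47.3 and 26.3 CPM in DPI, so the DPI libraries reached both above and below all others. The log2 fold change was -0.22 (SE 0.48) for Veh against ND and 0.25 (SE 0.40) for DPI against Veh, and the second was negative without DPI library 2.

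P2ry14, the receptor of UDP-glucose, was at the edge of detection (chromosome 3 from 59113855 to 59153618). It had 2 and 0 counts in ND, 21, 24 and 9 in Veh and 58, 10, 2 and 0 in DPI. The 3 Veh libraries were above the floor of 3 counts and both ND libraries below it, while the DPI libraries fell on both sides. The Veh mean was at least 6.77-fold above the floor of the ND group. DPI against Veh gave a log2 fold change of -1.04 (SE 1.45), from -1.65 without DPI library 1 to -0.62 without DPI library 4. The gene lies within Med12l on the other strand, from whose reads its few counts could not be told apart if strand was not used.

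Adora2b, the low-affinity adenosine receptor that couples to Gs, had 0 and 12.7 CPM in ND, 22.2, 24.1 and 16.9 CPM in Veh and 24.7, 14.6, 42.1 and 11.4 CPM in DPI (chromosome 11 from 62248984 to 62266453). Veh was above ND in each library, but the ND libraries were themselves far apart, with 0 and 68 counts. The log2 fold change was 1.73 (SE 1.10) for Veh against ND, and 0.14 (SE 0.85) for DPI against Veh, the latter negative without Veh library 3 or DPI library 3. The former was 0.74 without ND library 1, and 10.16 without ND library 2, a fitted value against a lone library at 0 counts and so no measure of size.

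Rgs1, the regulator among the members, had the highest mean CPM per kb of the 10 in Veh (chromosome 1 from 144242296 to 144249242). It had 56.6 and 94.7 CPM in ND, 346, 582 and 238 CPM in Veh and 80.7, 177, 363 and 328 CPM in DPI. All Veh libraries were above both ND libraries, whereas the DPI libraries reached from the ND range into the Veh range. The mean was 75.7 ± 26.9 CPM (SD, n = 2) in ND, 389 ± 176 CPM (SD, n = 3) in Veh and 237 ± 132 CPM (SD, n = 4) in DPI. The log2 fold change was 2.36 (SE 0.60) for Veh against ND, -0.71 (SE 0.45) for DPI against Veh and 1.65 (SE 0.56) for DPI against ND. The second of these was -0.30 without Veh library 2 and -0.99 without DPI library 3.

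**Figure D2:**
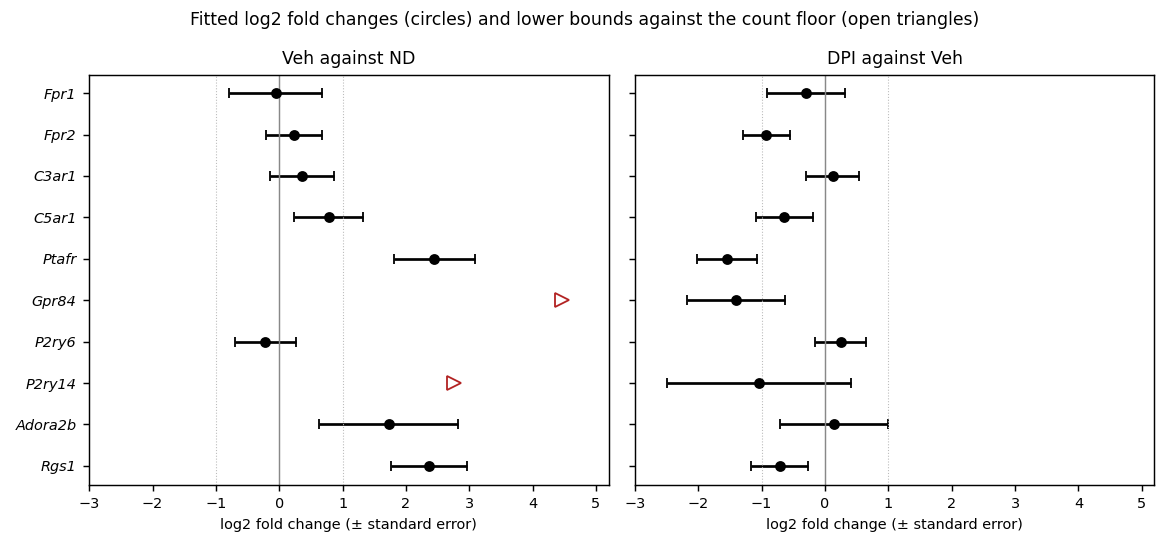
Log2 fold change (horizontal axis) of each member for Veh against ND and DPI against Veh, where circles are edgeR estimates with bars of 1 standard error, open triangles are lower bounds where ND was at or under 3 counts, and dotted lines mark a 2-fold change. Ptafr (2.45) and Rgs1 (2.36) lie right of the 2-fold line in the left panel along with the bounds of Gpr84 and P2ry14 and the wide estimate of Adora2b (1.73), and in the right panel Ptafr (-1.55), Gpr84 (-1.40), P2ry14 (-1.04) and Fpr2 (-0.93) lie farthest left.

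The members can be ordered by level only per length of transcript, here CPM per kb of the exons of RefSeq-matched transcripts in GENCODE M21. In Veh the order began with Rgs1 at 101 ± 45.8 CPM per kb (SD, n = 3), C5ar1 at 50.0 ± 19.3, Ptafr at 45.8 ± 21.5 and Fpr2 at 42.5 ± 9.44, and neighbours among these 4 overlapped. P2ry6 followed at 26.7 ± 6.66 and was above Adora2b at 11.4 ± 2.04 in every library, with Fpr1, Gpr84 and C3ar1 next and P2ry14 last at 1.21 ± 0.43. In ND the order began with Fpr2 at 36.1 ± 13.1 CPM per kb (SD, n = 2), P2ry6 at 31.1 ± 5.28 and C5ar1 at 29.1 ± 15.7, with Rgs1 at a mean of 19.7 and Ptafr at 8.39 ± 5.06. With DPI, Rgs1 (61.8 ± 34.4, SD, n = 4), C5ar1 and P2ry6 came first, and each gene overlapped its neighbour in the order. Ptafr thus stood below Fpr1 in ND and above Fpr2 in Veh, by means whose libraries overlapped.

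Within groups the members did not move as a block. Of the 45 pairs, 22 had a positive correlation of their deviations from the group means over the 9 libraries, with a median r of -0.03. This is a description of libraries that share depth and scaling. C5ar1 and Rgs1 deviated in the same direction (r = 0.83), as did Gpr84 and P2ry6 (r = 0.89), whereas Fpr1 and C3ar1 went opposite ways (r = -0.87). The 4 DPI libraries show this in single values. DPI libraries 1 and 2 had the higher levels of P2ry6 (74.5 and 99.5 CPM), P2ry14 (3.56 and 3.40 CPM) and Gpr84 (7.91 and 5.43 CPM), and DPI libraries 3 and 4 those of C5ar1 (84.4 and 153 CPM), Rgs1 (363 and 328 CPM) and Ptafr (77.4 and 81.0 CPM).

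The same libraries differed in markers of other cells. The summed level of 11 neutrophil markers, all detected in each group, was 1105 and 937 CPM in DPI libraries 1 and 2 and 3910 and 5807 CPM in DPI libraries 3 and 4, against 1482 to 3411 CPM in ND and 2621 to 4054 CPM in Veh. The sort on Gr1low cells is a gate that would remove neutrophils. The neutrophil list genes S100a8 and S100a9 still had 554 to 18609 and 652 to 23086 counts per library. Whether neutrophils were among the sorted cells was not tested. Over the 9 libraries the deviations of C5ar1 went with those of the neutrophil (r = 0.86), B cell (r = 0.88) and dendritic cell lists (r = 0.99, a sum that Ccr7 leads in Veh), so these lists cannot be told apart by it. P2ry14 went against the same lists (r = -0.98, -0.92 and -0.87), and P2ry6 against the neutrophil (r = -0.85) and B cell lists (r = -0.88). Rgs1 went with the same dendritic sum (r = 0.86). It went against the monocyte (r = -0.86) and sinusoidal endothelial lists (r = -0.83), the latter a sum that Fcgr2b leads. Dendritic cell markers ran from 55.7 to 108 CPM in ND, 196 to 310 in Veh and 123 to 409 in DPI. Most of the Veh sum was Ccr7 (mean 23.3 CPM in ND, 178 in Veh and 137 in DPI), while Flt3, Xcr1, Zbtb46 and Clec9a had lower means in Veh than in ND. B cell markers ran from 33.0 to 78.4 CPM in ND, 115 to 198 in Veh and 20.4 to 461 in DPI. T and NK cell markers were at 89.2 to 304 CPM in ND, 272 to 388 in Veh and 229 to 473 in DPI. Eosinophil markers were at 5.60 to 6.56 CPM in ND, with 6 of 7 at the floor, 6.94 to 8.89 in Veh and 5.38 to 115 in DPI. Among them, Prg2 had 0, 10 and 0 counts in Veh and 1296, 265, 2 and 468 in DPI. Hepatocyte markers were at 301 to 434 CPM in ND, 162 to 207 in Veh and 201 to 340 in DPI. Sinusoidal endothelial markers were at 523 to 598 CPM in ND, 380 to 501 in Veh and 290 to 553 in DPI. Fcgr2b leads that sum, with a mean of 270 CPM in ND and 438 in Veh. The other genes of the list had lower means in Veh than in ND, such as Stab2 (45.0 and 0.721 CPM) and Clec4g (82.4 and 0.578 CPM). The general macrophage list gave 15424 to 44642 CPM over all libraries. Neutrophils and monocytes carry Fpr1, Fpr2, C5ar1 and Ptafr as well, and the part of these cells in the receptor levels was not tested.

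**Figure D3:**
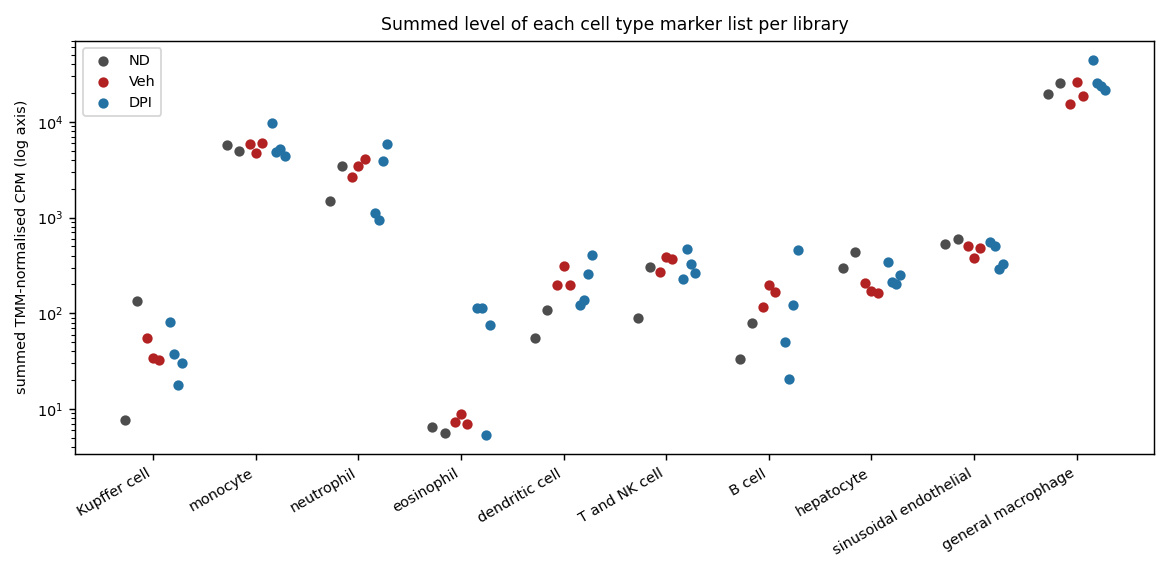
Summed TMM-normalised CPM (log axis) of 10 lists of cell type markers, where each point is a library and colour gives the group. The KC list stays at or under 135 CPM while the monocyte list starts at 4364 CPM, and the neutrophil list of the DPI libraries falls into 937 to 1105 and 3910 to 5807 CPM.

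To see whether other parts of the same signalling chain moved, 4 lists with 107 genes (ligands and the enzymes that make or remove them, other receptors, G proteins with their effectors, and other regulators of G alpha) were read from the same fit. The rule for the members did not use them, but they too were chosen with earlier results of these data known. Their counts and p-values are therefore a description. Of the 88 genes tested, 9 were past the threshold upward and 7 downward for Veh against ND, beside the 7.03% and 4.63% of all genes. For DPI against Veh, 2 were past it upward and 3 downward, beside 1.50% and 1.34% of all genes. With Benjamini-Hochberg adjustment over all 11393 genes, edgeR called 0 of the 88 in either comparison. With no filter on low counts it called 1 listed gene for Veh against ND. At an unadjusted p under 0.05 there were 18 and 8, and DESeq2 called 7 and 0 after adjustment. Over all 11393 genes, edgeR's adjusted calls were 0.0614% of those tested for Veh against ND and 0% for DPI against Veh. At an unadjusted p under 0.05 from edgeR, all genes gave 1479 for Veh against ND and 470 for DPI against Veh. DESeq2 gave 312 and 2 adjusted calls over all genes.

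**Figure D4:**
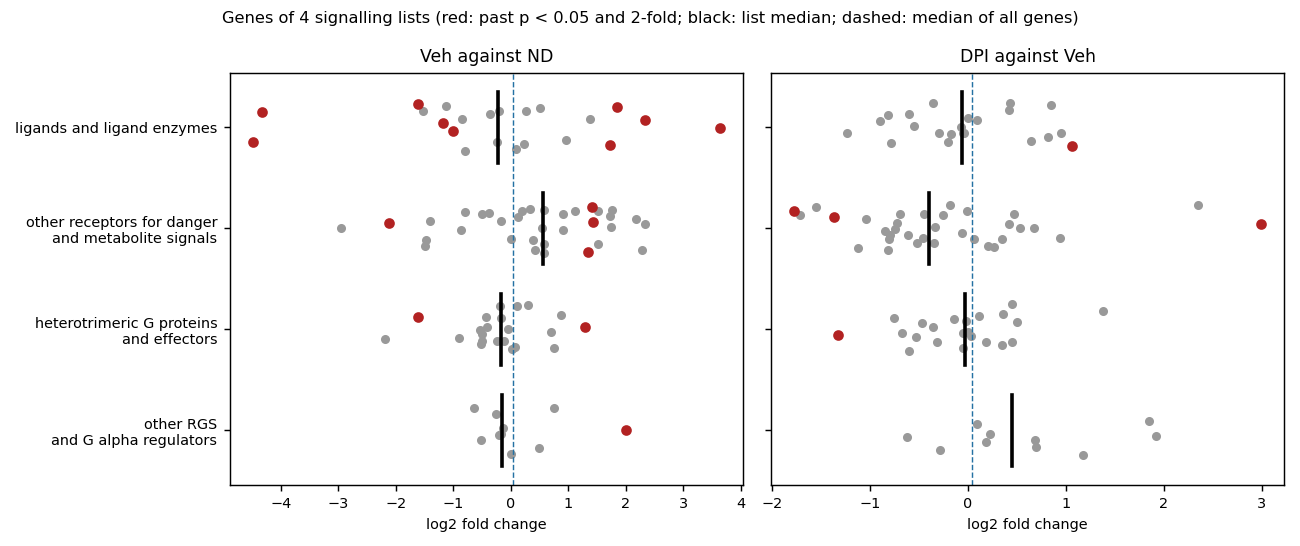
Log2 fold change (horizontal axis) of each tested gene in the 4 signalling lists, where red points passed an unadjusted p under 0.05 with a 2-fold change, black bars are list medians, the dashed line is the median of all tested genes, and genes at or under 3 counts throughout a group are set at their bound. Red points lie on both sides of 0 in the ligand list for Veh against ND, 4 to the right and 5 to the left.

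Ligands and ligand enzymes went both ways on HFD. Of 22 tested, 4 were past the threshold upward and 5 downward for Veh against ND, beside 7.03% and 4.63% of all genes. The median log2 fold change was -0.22 against 0.03 for all genes. The serum amyloid A genes, acute phase proteins of which several bind FPR2, were on the lower side: Saa2 had 76 and 81 counts in ND and 0 in each Veh library, at least 22.2-fold lower, and Saa1 was at least 20.0-fold lower. Their adjusted p was 0.0816 and 0.140 from edgeR's quasi-likelihood test. Both genes entered the fit only through the ND libraries, where they are high, so these values are a description. Saa3 was lower too (-1.62 on the log2 scale, SE 0.46). Saa1 and Saa2 are near-identical copies whose reads may have been split, and both are made mainly by hepatocytes, whose summed markers were lower in each Veh library than in each ND library. The part of hepatocyte RNA in these values was not tested.

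Complement factor B, encoded by Cfb and needed for the amplification loop that yields C3a, was on the higher side. Cfb had 24.4 and 5.98 CPM in ND and 90.8, 58.4 and 82.8 CPM in Veh, a log2 fold change of 2.34 (SE 0.57, edgeR adjusted p = 0.140), and 53.0, 59.1, 36.4 and 27.7 CPM in DPI. Both ND libraries were below all Veh libraries. The difference was 3.70 without ND library 1 and 1.69 without ND library 2, past the threshold in each case. Its fold change for DPI against Veh was -0.82 on the log2 scale (SE 0.43) and did not pass the threshold. Entpd1, which encodes CD39, an enzyme that breaks down extracellular ATP and UDP, was higher in Veh than in ND by 1.73 (SE 0.54, edgeR unadjusted p = 0.00666) and had -0.79 (SE 0.42) for DPI against Veh. The latter was -1.34 and past the threshold without DPI library 4.

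With DPI, 1 of the 22 ligand genes was past the threshold and it was higher, beside 1.50% of all genes upward and 1.34% downward. The list median was -0.04. Camp, which encodes the FPR2 ligand cathelicidin and is also a neutrophil granule gene on the neutrophil list, had 48.3 and 34.0 CPM in ND, 11.1, 22.5 and 20.8 CPM in Veh and 43.0, 29.6, 55.5 and 23.3 CPM in DPI. Its log2 fold change was 1.06 (SE 0.41, edgeR unadjusted p = 0.0233 and adjusted p = 0.999). The call was lost without Veh library 1 and without DPI library 1 or 3.

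Of 34 other receptors tested, 3 were past the threshold upward and 1 downward for Veh against ND, beside 7.03% and 4.63% of all genes. The median was 0.56 against 0.03 for all genes. Lpar6, a receptor for lysophosphatidic acid, was higher by 1.43 (SE 0.44, edgeR adjusted p = 0.238), and P2ry1, an ADP receptor, was lower (-2.12 on the log2 scale, SE 0.82, edgeR adjusted p = 0.321). Gpr35, a receptor for kynurenine metabolites, had 0.92 (SE 0.35), below the 2-fold limit, although its libraries did not overlap. It was past that limit without ND library 2 (1.13) and without Veh library 2 (1.00). The calls of Lpar6 and P2ry1 were lost without ND library 1, and that of P2ry1 also without Veh library 3.

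For DPI against Veh, 1 of these 34 receptors was past the threshold upward and 2 downward, beside 1.50% and 1.34% of all genes. The median was -0.40 against 0.04 for all genes. Cmklr1, the chemerin receptor, had 47.1, 18.3 and 83.0 CPM in Veh and 8.40, 18.3, 12.6 and 18.9 CPM in DPI, a log2 fold change of -1.77 (SE 0.62, edgeR unadjusted p = 0.0135). Ptgir, the prostacyclin receptor, had -1.37 (SE 0.50), and in both genes Veh library 2 lay within the DPI range. Ffar2, a short-chain fatty acid receptor, was at 0 counts in each ND and Veh library and at 0, 30, 49 and 14 counts in DPI, at least 7.95-fold higher. Ffar2 entered the fit only through the DPI libraries, so its call is a description. DESeq2 did not place Ffar2 past the threshold, and the gene failed the low-count filter without DPI library 2 or 3 and in a fit of the 2 groups only. Each of these genes had an adjusted p of 0.999 from edgeR. Both Cmklr1 and Ptgir lost the call without Veh library 3, and Ptgir also without Veh library 1.

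Of 22 G proteins and effectors tested, 1 was past the threshold in each direction for Veh against ND, beside 7.03% and 4.63% of all genes, with a median of -0.17. Gnb2, a G beta subunit, had 185 and 66.9 CPM in ND and 36.4, 43.2 and 44.9 CPM in Veh, a log2 fold change of -1.60 (SE 0.40, edgeR adjusted p = 0.142) that was -0.68 and no longer past the threshold without ND library 1. Pik3r6, an adaptor of the phosphoinositide 3-kinase that G beta-gamma activates, had 1.29 (SE 0.54, edgeR adjusted p = 0.347), a call lost without either ND library, without Veh library 1 and with scaling by library size alone. Gnai2, the main Gi alpha subunit of phagocytes, had -0.89 (SE 0.38), which turned to 0.12 without ND library 1.

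For DPI against Veh the list median was -0.03. The catalytic subunit of the same kinase, Pik3cg, was the only one of the 22 past the threshold, beside 1.50% of all genes upward and 1.34% downward. It had 136, 43.2 and 62.9 CPM in Veh and 48.6, 18.3, 28.4 and 32.2 CPM in DPI, so that DPI library 1 overlapped Veh. Its log2 fold change was -1.33 (SE 0.47, edgeR unadjusted p = 0.0137) and -0.73 without Veh library 1, where the call was lost. Its adaptor Pik3r5 had -0.76 (SE 0.33), with all DPI libraries below all Veh libraries, and Rac2, a GTPase of the oxidase pathway, had 0.50 (SE 0.32).

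Among 10 other RGS and G alpha regulators, Gpsm2 alone was past the threshold for Veh against ND, beside 7.03% of all genes upward and 4.63% downward. It had 0 counts in ND and 7, 20 and 6 in Veh, at least 4.02-fold higher. Gpsm2 entered the fit only through the libraries on HFD, so its call is a description. The list medians were -0.17 for Veh against ND and 0.45 for DPI against Veh. Rgs16 had 0 counts in ND and 0, 10 and 4 in Veh. Rgs2, like Rgs1 a brake on receptor signals, had 387 and 392 CPM in ND, 607, 591 and 444 CPM in Veh and 348, 342, 343 and 392 CPM in DPI. All Veh libraries were above all others, with log2 fold changes of 0.49 (SE 0.26) for Veh against ND and -0.62 (SE 0.22, edgeR unadjusted p = 0.0126) for DPI against Veh, short of the 2-fold limit. Gpsm3 had 0.68 (SE 0.30) for DPI against Veh. Gpsm1 had 0, 3 and 2 counts in Veh and 47, 1, 2 and 57 in DPI, so that 2 DPI libraries were under the floor as well. None of the 10 was past the threshold in that comparison, where 2 had an unadjusted p under 0.05 and DESeq2 gave 0 adjusted calls over the 4 lists.

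The genes whose log2 CPM followed a member most closely over the 9 libraries were taken by Pearson's r, a description that the differences between groups enter. For Ptafr these were Glul (r = 0.98), with means of 79.7 CPM in ND, 216 in Veh and 115 in DPI, AA467197 (r = 0.98) and Qsox1 (r = 0.96). For Gpr84 they were Scmh1 (r = 0.98), Ddx20 (r = 0.97) and Haus1 (r = 0.96), all with a mean of 0 CPM in ND and the highest mean in Veh. For Fpr2 they were Hist1h2bc (r = 0.95), Tmco6 and Dennd3 (r = 0.92 for each), all with the lowest mean in DPI.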

How the data were processed

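RNA-seq counts of 9 libraries of sorted mouse liver macrophages were used, in 3 groups given by the sample labels. The authors aligned reads to mm10 with bowtie2 and took raw counts from RSEM, per their methods (the labels also list TopHat2 and edgeR). The deposited table holds whole-number counts, 1 column per library. Libraries were named as separate mice in the labels.

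Counts were tested with edgeR 4.0.16 (R 4.3.3) by filterByExpr, TMM scaling and glmQLFit over the 3 groups, with p adjusted by the Benjamini-Hochberg method over 11393 genes. The common biological coefficient of variation was 0.65. Standard errors are the log2 fold change divided by the root of F. The floor was 3 counts per library. Correlations used log2 CPM with a prior count of 2. Depth ran from 3534325 to 15585775 counts. The test was checked on simulated counts. The alternatives tried were scaling by RLE or by totals, dropping the filter or asking for at least 10 counts in every library, DESeq2 1.42.0, a replicate block, fits of 2 groups, removal of Rn45s and each library left out.

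The members and lists were chosen with earlier results of these data known. Named were all members, at most 3 genes with the smallest p per signalling list and comparison, and the 3 genes most correlated with Gpr84, Ptafr and Fpr2. Emr1, Saa3, Entpd1, Cfp and C3 for Veh against ND were named after their values were seen. Gene positions came from GENCODE M21 (GRCm38) and promoters from RefSeq (GRCm38.p6). Of the 107 listed signalling genes, 106 had a row.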

Additional observations from a re-analysis of the deposited data

Results flagged for a closer look

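Dixon's test was run on 32 genes named as members or from the signalling lists, with Saa3, Cfp and C3 not among them. In the 4 DPI libraries it found 1 library far from the rest for 2 genes. The test flags about 1 in 20 groups by chance. Rgs2 had 392 CPM in its highest DPI library, against 342 to 348 CPM in the others. Saa2 had 0.0613 CPM, a single count and so under the floor of 3, in 1 DPI library and 0 in the others. With 3 values at 0 any count meets that test, so Saa2 is not told apart from 0 there.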

How the results depend on the processing

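The number of genes past the threshold was 1329 for Veh against ND and 726 with at least 10 counts in every library, a filter that leaves fewer genes to test. It lay between 1027 and 2634 when single libraries were left out, the highest without ND library 2, where 568 had an adjusted p under 0.05. For DPI against Veh it was 324, 602 without a filter, 202 with at least 10 counts in every library and 187 to 543 when single libraries were left out, the lowest without Veh library 1 and the highest without ND library 1. With scaling by library size alone the median over all genes on the log2 scale was -0.26 in place of 0.03 for Veh against ND, which changed the split from 801 higher and 528 lower to 539 and 933. For DPI against Veh it gave 196 higher and 101 lower in place of 171 and 153. The 10 count filter gave 65 and 137 there, the fit of the 2 groups 155 and 239, and the replicate block 150 and 251. The listed signalling genes past the threshold numbered 16 for Veh against ND (13 to 31 with single libraries left out, the highest without ND library 2) and 5 for DPI against Veh (3 without Veh library 3 or DPI library 3, to 8 without DPI library 4). DESeq2 gave 312 adjusted calls for Veh against ND against 7 by edgeR. The cause of these shifts was not tested.

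Gnai2 for Veh against ND had -0.89 on the log2 scale, reversed to 0.12 without ND library 1 and was -1.45 without ND library 2. Same-numbered libraries did not deviate together (r from -0.02 to 0.08 over 7 pairs), so the numbers were not taken as pairs. With the replicate block 897 and 401 genes were past the threshold, and 15 and 6 of the listed genes. With the block the log2 fold change for DPI against Veh was -1.95 for Ptafr, -1.19 for Fpr2, -1.10 for C5ar1 and -1.11 for Rgs1, so that 4 members in place of 1 lay past the threshold downward, a description since these genes were chosen on this comparison. In the same sense, further members lay past it for DPI against Veh without Veh library 2 (Fpr2), without DPI library 4 (Fpr2 and C5ar1) and in the fit of the 2 groups (Gpr84), and for Veh against ND without ND library 2 (C5ar1 and Adora2b) and, for P2ry14, with DESeq2, in the fit of the 2 groups and without DPI library 4. With the replicate block, Cmklr1 (-1.56) and Ptgir (-1.13) for DPI against Veh were not past the threshold, whereas Entpd1 (-1.39) was. For Veh against ND, Pik3r6 (1.10) and Emr1 (-0.93) were not past it with the block. The filter of 10 counts in every library left out Fpr1, Gpr84, P2ry14 and Adora2b. Levels near 3 counts limit P2ry14 and Gpr84 in ND, and the gap between 0 and 68 counts in the 2 ND libraries limits Adora2b.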
